A study of Mus musculus with 14 samples.

Results

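The proliferins are secreted glycoprotein hormones of the prolactin family, encoded in the mouse by the Prl2c genes. Of the 54332 rows of the expression table, 4 carried a symbol beginning with Prl2c, namely Prl2c1, Prl2c2, Prl2c3 and Prl2c5. The family was selected on the rise of Prl2c3 at W12 against D0, so the W12 values of its members are given as a description, with no test. Values are in TPM, which scales a gene's reads by its transcript length and then each library to a sum of 1000000 transcripts. A gene was tested where its mean over the 10 libraries reached 1 TPM, which left 13110 genes and 3 of the 4 Prl2c genes. Those 3 passed only through W6 and W12, where they are high, so calls of them as higher at those times follow from the filter and support nothing, and Prl2c1 did not pass.

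The libraries came from epidermal stem cells (EpdSCs) of back skin of CD1 mice of genotype K14rtTA; TRE-myc-Sox9, all labelled male, with 2 biological replicates at each of 5 timepoints. In these mice the keratinocyte promoter Krt14 drives the rtTA activator, and doxycycline (DOX) then switches on a MYC-tagged Sox9 transgene. The D0 mice were 21 days old, and W1, W2 and W6 mice, given DOX from that age on, were 28, 35 and 63 days old. The W12 libraries came from newborn skin of the same genotype that was grafted onto female immunodeficient hosts, left to heal and then induced for 12 weeks, so 12 weeks of SOX9 and grafting cannot be told apart. Likewise age and time on DOX rose together, and no uninduced RNA library of a later age was analysed here. Cells were sorted as CD49f-high and Ly6A-high, and without CD31, CD45, CD117, CD140a and CD34. In bulk RNA a change in the share of producing cells and a change in RNA per cell cannot be told apart.

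Proliferins were first known as products of growth factor-treated fibroblasts, where they are also called mitogen-regulated proteins, and of trophoblast giant cells of the placenta. They carry mannose 6-phosphate, bind the IGF2 and mannose 6-phosphate receptor (Igf2r), and act on endothelial cells as angiogenic factors. The promoter of a proliferin gene is a textbook element at which the transcription factor AP-1 (FOS and JUN proteins) and the glucocorticoid receptor (Nr3c1) meet. A proliferin has also been described in hair follicles and in healing skin wounds.

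On GRCm38, Prl2c3 lay at chr13:12790816-12800079 and Prl2c2 at chr13:12996125-13005383, both on the minus strand, and Prl2c5 at chr13:13182715-13191923 on the plus strand. Gaps of 196 kb and 177 kb separated these 3 genes. Prl2c1, at chr13:27849342-27857788 on the plus strand, stood 14657 kb beyond Prl2c5. How far reads can be assigned to single members depends on how alike the transcripts are. The main transcripts of Prl2c3 and Prl2c2 differed at 4 of 842 aligned bases (99.5% identity), whereas Prl2c5 differed from Prl2c3 at 30 of 844 (96.4%) and from Prl2c2 at 28 of 834 (96.6%). Prl2c1 was the most distant, at 92.3% to 93.5% identity with the other members.

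The bases that separate Prl2c3 from Prl2c2 are shown because the split of their reads rests on them. Counted from 1 at the start of the Prl2c3 transcript, Prl2c3 base first, they were A18G in the untranslated part of exon 1, and in the coding part C81T in exon 1, A267C in exon 2 and G386T in exon 4 of 5. At the last of these Prl2c5 carries the base of Prl2c3, and at the other positions that of Prl2c2. The 3 coding sites follow, each with the differing base in capitals.
Prl2c3, position 81: ctcccttcttCgattcaacca
Prl2c2, same site: ctcccttcttTgattcaacca
Prl2c3, position 267: gaactgttcaAtgaatttgaa
Prl2c2, same site: gaactgttcaCtgaatttgaa
Prl2c3, position 386: cacacactatGcagctcttct
Prl2c2, same site: cacacactatTcagctcttct

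Of the 31-base words in a transcript, the length on which the quantification tool builds its index by default, 94.5% of those in Prl2c2 and 86.0% of those in Prl2c3 also occurred in another Prl2c gene. The share was 50.0% for Prl2c5 and 38.0% for Prl2c1. Over windows of 50 bases, the length of 1 read, the shares were 89.5% for Prl2c2, 78.6% for Prl2c3 and 33.6% for Prl2c5. That left 83 windows of Prl2c2, 173 of Prl2c3 and 528 of Prl2c5 that occurred in no other Prl2c gene. Outside the family a 31-base word was shared with 2 genes, the pseudogene Gm7040 and Prl7d1, whose levels never exceeded 0.256 and 0.0383 TPM. The division between Prl2c3 and Prl2c2 is therefore uncertain, that of Prl2c5 less so, and the sum over the family does not depend on it.

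The windows before the start of Prl2c3 and Prl2c5, the 2 members matched in RefSeq's promoter sequences, are shown because AP-1 is known to act at such promoters. Nothing about the levels of the genes is drawn from them. Each run gives the 250 bases before the start RefSeq's promoter sequences use for the gene, 5′ to 3′ on the gene's own strand, on GRCm38.p6. For Prl2c5 that start lies 1 base after the GENCODE start given above. Capitals mark matches to the AP-1 motif, TGANTCA, and to the TATA box motif of core promoters, TATANAA. The windows are chr13:12800080-12800329 on the minus strand and chr13:13182466-13182715 on the plus strand.
Prl2c3: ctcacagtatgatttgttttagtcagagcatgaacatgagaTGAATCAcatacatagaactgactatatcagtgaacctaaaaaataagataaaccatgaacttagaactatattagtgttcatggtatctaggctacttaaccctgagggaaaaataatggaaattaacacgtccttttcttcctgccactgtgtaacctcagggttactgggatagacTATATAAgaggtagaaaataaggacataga
Prl2c5: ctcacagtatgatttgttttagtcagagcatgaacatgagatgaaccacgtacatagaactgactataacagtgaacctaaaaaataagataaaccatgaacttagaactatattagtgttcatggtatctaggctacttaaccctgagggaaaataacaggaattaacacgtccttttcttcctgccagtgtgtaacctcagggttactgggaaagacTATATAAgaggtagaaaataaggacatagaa

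Over 249 aligned bases the 2 windows differed at 8 (96.8% identity). The AP-1 letters matched once in Prl2c3, starting 209 bases before the gene's start, and not in Prl2c5. One of the differing bases, T46C counted from the first base of the Prl2c3 window, lay inside that match. The TATA box letters matched once in each, starting 30 bases before the start of Prl2c3 and 31 before that of Prl2c5, so the 1-base difference lies within that between the annotations and is not read. Neither window held AACAAT, the core of the SOX motif, or AGAACA, a half-site of the glucocorticoid receptor. Both strands were searched with each motif, and in 32851 windows of this length TGANTCA was found in 6.7%, TATANAA in 10.4%, AACAAT in 9.4% and AGAACA in 16.1%. Only these exact letters were searched, so a site that departs from them is not marked and no absence of a site is read. Whether either window holds the known AP-1 and glucocorticoid receptor element was not examined. A match of letters is no sign of binding.

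Some libraries stood apart or went against their labels. The library labelled D0 replicate 2 held 4.61 TPM of Xist, a transcript specific to females, and 0.0278 TPM of Ddx3y, a gene of the Y chromosome, against 0.00665 TPM or less for Xist and 21.9 to 32.7 TPM for Ddx3y in the other libraries up to W6. Both W12 libraries held both kinds of transcript, with Xist at 5.51 and 3.50 TPM and Ddx3y at 11 and 12.9 TPM. Their grafts sat on female hosts, and cells of the host and cells of a female donor cannot be told apart here. All 10 basal keratinocyte markers were at 1 TPM or more in every library, and Krt14 stayed between 19997 and 37666 TPM. Their levels moved, with 7 of the 10 called lower and 1 higher at W6 against D0, where 32.4% of all genes were called, and 5 lower, among them Krt5, Trp63 and Cdh1, and 3 higher at W12, where 43.0% were. The transgene rose from 89.6 and 45.6 TPM at D0 to 3387 and 3414 TPM at W1, and stood at 1108 and 859 TPM at W6 and 606 and 904 TPM at W12. Totals of reads are not in a TPM table, so the depth is unknown and no counting error is given.

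From D0 to W2 the proliferin genes were at or near 0. Prl2c3 was listed at 0 and 0.077 TPM at D0, at 0 in both W1 libraries, and at 0 and 0.497 TPM at W2. Prl2c2 was at 0.0525 and 0 TPM at D0, 0.110 and 0.269 TPM at W1, and 0.272 and 0 TPM at W2. Prl2c5 was listed at 0 in all 4 libraries of D0 and W1, and at 0.0379 and 0.10 TPM at W2. Prl2c1 was at 0 in all of these. For Prl2c3 the 3 timepoints overlapped. For Prl2c2 both W1 libraries stood above both D0 libraries, at 0.269 TPM or less, while W2 overlapped with D0, and for Prl2c5 both W2 libraries stood above 0. These levels lie below the pseudocount of 1 used for testing, and the genes passed the filter only through later timepoints. No test is therefore read here, and neither is the order of these libraries. The transgene was at 1892 and 1469 TPM at W2.

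At W6 the proliferin genes, Prl2c1 apart, were no longer near 0. Prl2c3 reached 48.3 and 89.5 TPM, which placed it 3147th and 1795th among all rows in the 2 libraries. Prl2c5 reached 12.7 and 36.3 TPM, and Prl2c2 7.73 and 21 TPM. Each W6 library stood above every earlier library for these 3 genes. They passed the filter only through W6 and W12, and the share of all genes so separated was not computed. This separation is therefore not read as support. For all 3 genes the level in W6 replicate 2 was the higher. Prl2c1 was at 0 and 0.0875 TPM.

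**Figure D1:**
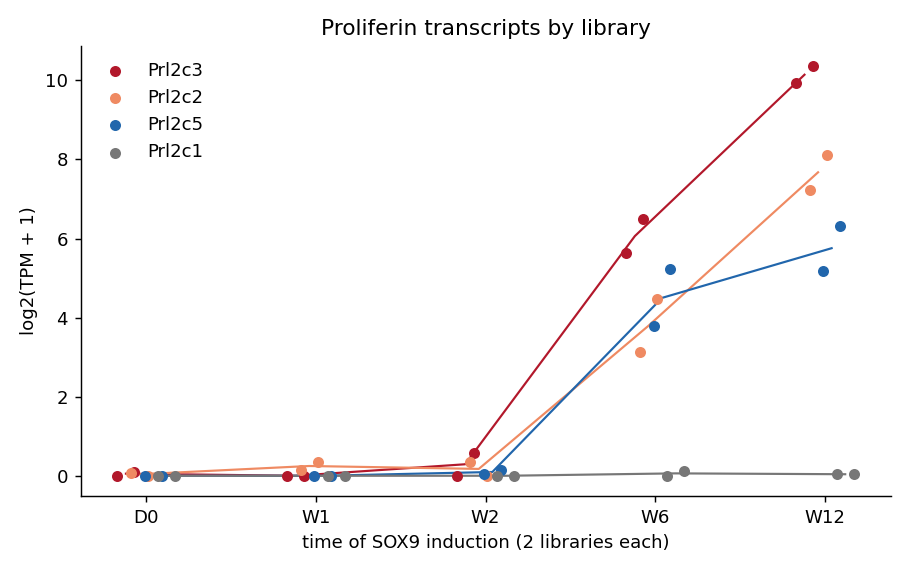
Level of each Prl2c gene as log2(TPM + 1) against timepoint. Points are the 2 libraries of a timepoint and lines join the means. Prl2c3, Prl2c2 and Prl2c5 lie below 0.5 TPM up to W2 and between 7.73 and 89.5 TPM at W6, while Prl2c1 stays below 0.1 TPM at every timepoint.

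The sizes of these differences are given with their errors and without P values, since the genes were tested only because of their W6 and W12 levels. Against D0, the log2 change at W6 was 6.01 for Prl2c3 (s.e. 0.313), 4.50 for Prl2c5 (s.e. 0.477) and 3.75 for Prl2c2 (s.e. 0.432) in the limma fit. D0 also entered the comparison on which the family was selected. Against W2, which did not, the changes were 5.77 (s.e. 0.313), 4.41 (s.e. 0.477) and 3.62 (s.e. 0.432) in the same order. Of all genes tested, 18.3% were called higher at W6 against D0 and 7.99% at W6 against W2.

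The size of the W6 difference was also computed without dividing reads among members and without the library that goes against its label. The summed Prl2c level was 68.8 and 146.9 TPM at W6, against 0.0525 and 0.0770 TPM at D0. Fitted as a single row, the sum had a log2 change of 6.58 (s.e. 0.334). With a pseudocount of 0.1 in place of 1, which weighs the near-0 D0 levels more, the log2 changes at W6 against D0 were 8.95 for Prl2c3, 7.76 for Prl2c5 and 6.70 for Prl2c2. Without D0 replicate 2, the log2 changes at W6 against D0 were 6.06 for Prl2c3, 4.50 for Prl2c5 and 3.72 for Prl2c2. The 95% confidence intervals of the main estimates were 5.30 to 6.72 for Prl2c3, 3.42 to 5.59 for Prl2c5 and 2.77 to 4.74 for Prl2c2. The members were measured in the same libraries, so these intervals are not used to compare them.

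At W12 the levels were higher again. Prl2c3 was at 977 and 1307 TPM, 167th and 118th among all rows, and Prl2c2 at 149 and 278 TPM, 1045th and 615th. Prl2c5 was at 35.3 and 79.4 TPM, and Prl2c1 at 0.0261 and 0.0287 TPM. The sum over the family was 1161 and 1664 TPM, or 0.116% and 0.166% of all transcripts. These are the values on which the family was selected, and 43.0% of all genes were called at W12 against D0 in either direction.

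The members did not rise in step from W6 to W12. The mean of Prl2c3 was 16.6 times as high at W12 as at W6 (10.9 to 27.1 times between the nearest and the farthest libraries), and that of Prl2c2 14.9 times (7.11 to 35.9). The mean of Prl2c5 was 2.34 times as high (0.973 to 6.23), and its lower W12 library lay below its higher W6 library. Prl2c3 made up 70.2% and 60.9% of the summed Prl2c TPM at W6 and 84.1% and 78.5% at W12. Prl2c5 made up 18.5% and 24.7% at W6 and 3.0% and 4.8% at W12. Prl2c2 made up 11.2% and 14.3% at W6 and 12.8% and 16.7% at W12.

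**Figure D2:**
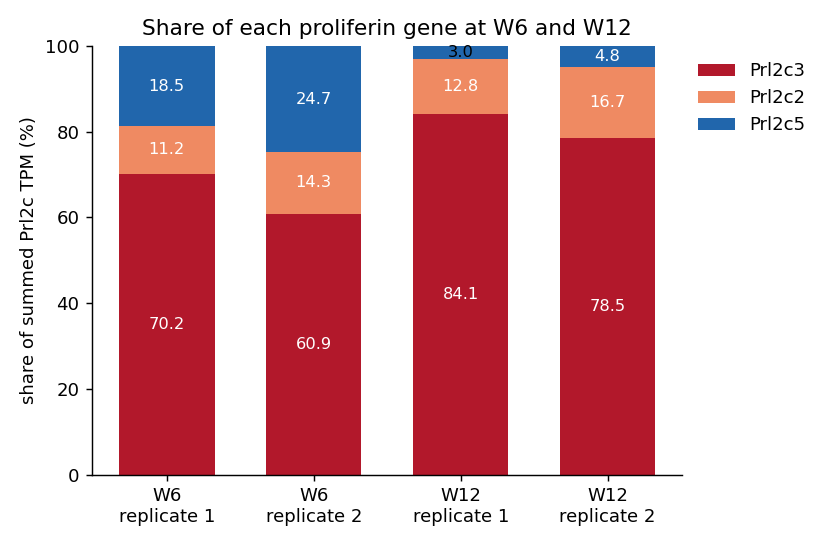
Share of each Prl2c gene in the summed Prl2c TPM of a library, in percent, for the 4 libraries of W6 and W12 (Prl2c1 lies below what can be drawn). Prl2c5 holds 18.5% and 24.7% at W6 and 3.0% and 4.8% at W12, and the share of Prl2c3 is higher in both W12 libraries than in both W6 libraries.

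Ratios within a library gave the same order. Prl2c3 was 6.25 and 4.27 times Prl2c2 at W6 and 6.55 and 4.71 times at W12, so the ranges of these near-identical genes overlapped. Prl2c3 was 3.79 and 2.46 times Prl2c5 at W6 and 27.6 and 16.5 times at W12. Prl2c2 was below Prl2c5 at W6, at 0.606 and 0.577 of its level, and above it at W12, at 4.22 and 3.49 times. These ratios are per length and come from W12 values that selected the family, so they carry no test.

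Markers of other cells moved with the W12 values. All 8 listed endothelial markers stood at 1 TPM or more in both W12 libraries, which before W12 was true only of Pecam1 in W6 replicate 2, at 1.14 TPM. Their summed level was 77.1 and 164 TPM at W12, against 1.10 and 2.96 TPM at W6 and 0.164 to 0.570 TPM from D0 to W2. The adhesion molecule Pecam1, which is the CD31 of the sort, was at 26.1 and 59.8 TPM, and the sialomucin Emcn at 22.9 and 45.5 TPM. The 5 endothelial markers that reached a mean of 1 TPM did so only through W12, so their calls as higher there, against 43.0% of all genes called in either direction, were set by the filter and support nothing. At W6, where Prl2c3 was at 48.3 and 89.5 TPM, Pecam1 was at 0.517 and 1.14 TPM and Cdh5, the cadherin of endothelial junctions, at 0.0153 and 0.0518 TPM. The part of endothelial cells in the levels of the Prl2c genes was not tested.

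Other marker lists moved less evenly. Of 9 immune markers only Cd74, an invariant chain that keratinocytes can also make, was at 1 TPM or more at W12, at 102 and 124 TPM, while the pan-leukocyte gene Ptprc was at 0.0184 and 0.327 TPM. The summed level of the 9 fibroblast markers was 84.3 and 147 TPM at W12, against 4.93 and 62.3 TPM at W6 and 38.1 and 52.6 TPM at D0. At D0 most of it was Thy1, at 35.7 and 47.5 TPM, which was at 17.0 and 15.1 TPM at W12. At W12 most was the intermediate filament gene Vim, which is not specific to fibroblasts, at 53.5 and 104 TPM. The proteoglycan gene Dcn was at 1.46 and 51.2 TPM at W6 and 13.2 and 27.2 TPM at W12. The defining fibroblast genes Pdgfra and Col1a1 were at or below 0.188 and 0.199 TPM at W12. Of 7 muscle and fat markers only the fatty acid transporter Cd36 reached 1 TPM at W12, at 16.8 and 21.2 TPM. The 8 melanocyte and mast cell markers summed to 10.3 and 9.24 TPM at W12 and 4.67 and 10.6 TPM at W6. As with endothelial cells, the part of each in the Prl2c levels was not tested.

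Within 500 kb of a Prl2c gene the table held 70 other genes, of which 10 reached a mean of 1 TPM. At W6 against D0, 1 of the 10 was called higher and 2 lower, near the background, as 32.4% of all genes were called in either direction and 18.3% higher. The gene that rose was the processed pseudogene Gm48455, 110 kb from Prl2c3, at 5.38 and 2.00 TPM at D0 and 14.6 and 14.7 TPM at W6 (log2 change 1.84, adjusted P = 0.00423 by limma). It was no longer called with only the 4 libraries of the contrast (adjusted P = 0.0601 by limma). Those that fell were Edaradd, an adaptor of the ectodysplasin receptor, by 1.02 on the log2 scale, and Lgals8, a galectin, by 0.54. Lgals8 lost its call in 5 alternatives, and Edaradd with only the 4 libraries of the contrast. The other genes, namely Heatr1, Ero1b, Gpr137b-ps, Gm2423, Gpr137b, Lyst and Rps18-ps5, had log2 changes between −0.30 and 1.10 at W6. The pseudogene Gm2423 was 40 kb from Prl2c5, the closest of the 10, and stood at 3.99 and 1.18 TPM at W6.

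**Figure D3:**
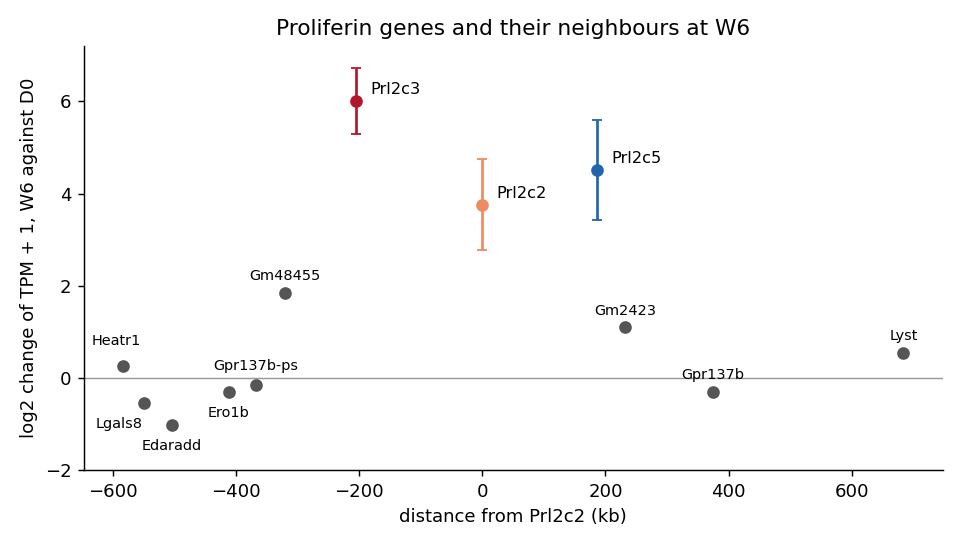
Log2 change of TPM + 1 at W6 against D0, plotted by distance in kb from the middle of Prl2c2, for the 3 tested Prl2c genes (coloured, bars are 95% confidence intervals) and the 9 genes of at least 1 TPM mean near them (grey). The grey points lie between −1.02 and 1.84. The Prl2c genes were tested only because of their W6 and W12 levels, so their distance from the grey points is not read.

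The rest of the prolactin family stayed at or near 0 up to W6 and was low at W12. Of 22 other family members, 11 were listed at 0 in all 10 libraries and none reached a mean of 1 TPM, so none was tested. Summed over the 22, the level was between 0 and 0.789 TPM up to W6, and 2.68 and 4.06 TPM at W12. Prl8a9 was listed at 0 in all libraries up to W6 and was at 1.12 and 3.40 TPM at W12, and Prl8a1 was at 1.29 and 0.603 TPM there. Prl7d1, known as proliferin-related protein and as an inhibitor of angiogenesis, never exceeded 0.0383 TPM. Prl itself, the pituitary hormone, never exceeded 0.259 TPM.

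Trophoblast genes, apart from 1, were at 0.423 TPM or less in every library. Of 14 listed genes, only Ascl2, a transcription factor of placental precursors that skin also uses, could be tested, and it fell by 2.19 on the log2 scale at W6 (adjusted P = 0.00124 by limma). It went from 28.6 TPM in both D0 libraries to 4.29 and 6.96 TPM at W6 and 8.95 and 4.81 TPM at W12. Some of the others were higher at W6 than before. Gcm1, a factor of the placental labyrinth, was at 0 in all libraries up to W2, at 0.0404 and 0.15 TPM at W6 and at 0 at W12. Eomes, a factor of trophoblast stem cells, was at 0.0183 TPM or less up to W2, 0.119 and 0.202 TPM at W6 and 0.0237 and 0.019 TPM at W12. The giant cell regulator Hand1 was at 0 in both W6 libraries and at 0.0600 and 0 TPM at W12. The spongiotrophoblast gene Tpbpa never exceeded 0.0185 TPM, and Ctsq, a cathepsin of giant cells, was at 0 in every library.

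Receptors and the enzymes that add mannose 6-phosphate were present throughout. Igf2r, the receptor proliferins bind, ranged from 1.63 to 4.67 TPM, and Prlr, the prolactin receptor, from 4.85 to 20.3 TPM. M6pr, the smaller mannose 6-phosphate receptor, ranged from 72.8 to 104 TPM. By limma 0 of the 6 genes of this list differed from D0 at W1 or W2, with an unadjusted P under 0.05 for 3 and 2 of them, where 9.89% and 15.7% of all genes were called. At W6 and at W12, where 32.4% and 43.0% of all genes were called, 1 of the 6 was, namely Gnptab, the catalytic subunit of the phosphotransferase that starts the tag. It fell by 1.09 on the log2 scale at W6 (adjusted P = 0.0053 by limma) and by 1.56 at W12 (adjusted P = 0.000625), from 29.7 and 34.8 TPM at D0 to 14 and 15.3 TPM and then 10 and 10.5 TPM. With only the 4 libraries of the contrast the W6 call was lost (adjusted P = 0.0544 by limma).

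The transcription factors that act on proliferin promoters were lower than at D0 at every later timepoint for most of the list. All 8 genes of the list, 7 FOS and JUN genes and Nr3c1, fell at W6 and at W12 against D0, where 32.4% and 43.0% of all genes were called in either direction. The median log2 change of the list was −2.03 at W6 and −2.52 at W12, against 0.08 and −0.08 over all genes tested. At W1, where each Prl2c gene was at 0.269 TPM or less, 6 of the 8 had fallen, and at W2 5 had. Over all genes, 9.89% and 15.7% were called at W1 and W2 in either direction. From W2 to W6, the interval in which the Prl2c levels went up, 1 of the 8, Nr3c1, was called lower (log2 change −0.86, adjusted P = 0.0401 by limma) and none higher, where 16.3% of all genes were called. That call was lost in 8 alternatives, the replicate block among them (adjusted P = 0.0606 by limma), with adjusted P up to 0.207. In that interval the log2 change was 1.21 for Fosl1 (adjusted P = 0.136 by limma), −0.10 for Fos and −0.02 for Junb. The part of these factors in the Prl2c levels was not tested.

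Fosl1 was at 613 and 993 TPM at D0, 46.0 and 18.0 TPM at W2, 83.5 and 55.6 TPM at W6, and 119 and 136 TPM at W12. Its log2 change against D0 was −3.50 at W6 (adjusted P = 0.00173 by limma), and its W6 and W12 libraries all stood below both D0 libraries. Fosb fell from 423 and 851 TPM at D0 to 67.1 and 31.8 TPM at W6, and Junb from 5321 and 9271 TPM to 1333 and 1077 TPM. Jun fell by 1.98 on the log2 scale at W6. Nr3c1, the glucocorticoid receptor, was at 53.4 and 71.7 TPM at D0 and 22.8 and 35 TPM at W6 (log2 change −1.10, adjusted P = 0.00873 by limma). Without D0 replicate 2 its call was lost (adjusted P = 0.056 by limma). For all these genes D0 replicate 2, the library that goes against its label, was the higher of the D0 pair.

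Mitogens are known to switch on proliferins, so their ligands were listed. Of 9 tested mitogen ligands, 5 were called higher at W6 against W2 and 0 lower. Over all genes tested, 7.99% were called higher there and 16.3% in either direction. Of the 5, Ereg and Fgf1 passed the filter only through W6 and W12, so the count is not read as support, and Epgn lost its call (adjusted P = 0.0205 by limma) in 5 alternatives, with adjusted P between 0.0577 and 0.128. Ereg (epiregulin) was at 0.403 and 0.391 TPM at W2, 5.78 and 4.75 TPM at W6 and 8.77 and 11 TPM at W12. Both its W6 libraries stood above all earlier ones. Areg (amphiregulin) went from 33.6 and 15.3 TPM at D0 to 5.02 and 2.71 TPM at W2, 26.8 and 18.0 TPM at W6 and 72.1 and 88.8 TPM at W12. Its rise from W2 to W6 (log2 change 2.28, adjusted P = 0.00803 by limma) was not called without W2 replicate 2 (adjusted P = 0.0631), nor was that of Hbegf (adjusted P = 0.0589). Hbegf and Epgn, 2 further ligands of this family, fell by 3.58 and 4.61 on the log2 scale at W2 against D0 and stayed lower than D0 at W6, with log2 changes of −1.73 and −3.48.

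Of the angiogenic ligands, Pgf (placental growth factor) came on before the proliferins. It was at 0.0348 and 0 TPM at D0, 2.45 and 5.33 TPM at W1, 7.47 and 3.32 TPM at W2, 6.05 and 5.34 TPM at W6 and 13.8 and 19.1 TPM at W12. It passed the filter only through the timepoints after D0, so its change is given by these levels alone. Of the other 5 tested ligands, Vegfa and Vegfd were lower at W6 than at D0 and none was higher, while at W12 Angptl4 and Vegfa were higher and Ang, Vegfb and Vegfd lower. Of all genes, 32.4% were called at W6 and 43.0% at W12 in either direction. Angptl4, an angiopoietin-like protein, rose by a log2 change of 2.21 at W12, from 11.9 and 9.05 TPM to 48.5 and 54.9 TPM. The VEGF family members Vegfb and Vegfd fell by 1.43 and 1.59 on the log2 scale at W12.

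**Figure D4:**
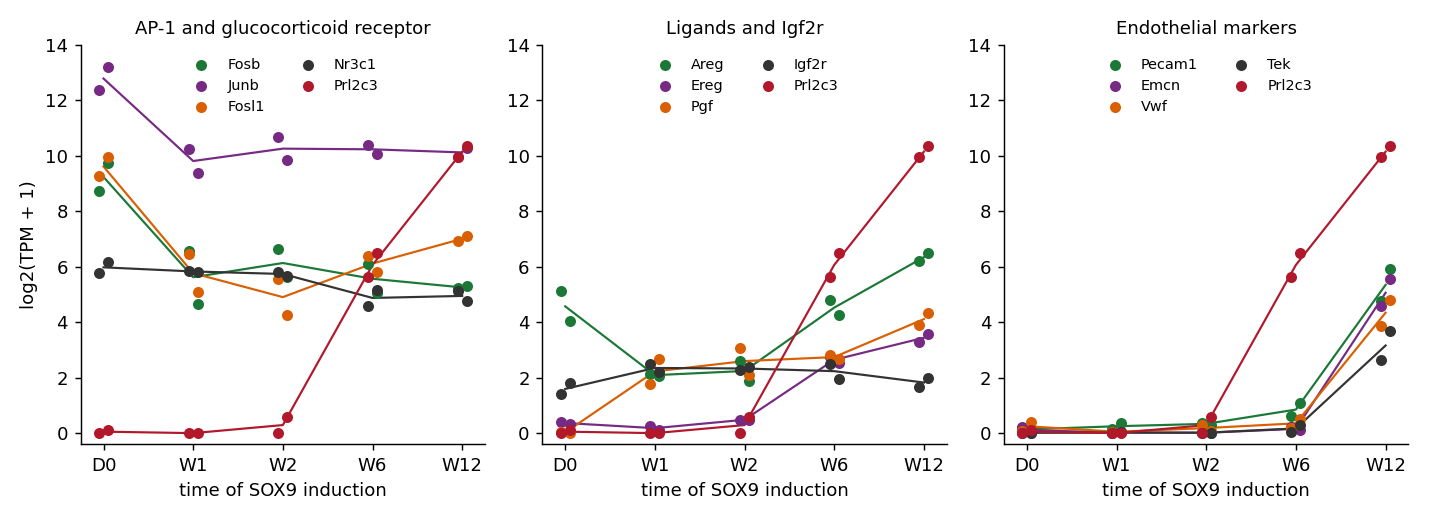
Levels as log2(TPM + 1) against timepoint for factors that act on proliferin promoters (left), ligands and the receptor Igf2r (middle) and endothelial markers (right), with Prl2c3 in red in each panel. Points are the 2 libraries of a timepoint and lines join the means. Fosl1, Fosb, Junb and Nr3c1 are lower at W6 and W12 than at D0. Endothelial markers stay at or below 1.14 TPM at W6, where Prl2c3 is at 48.3 and 89.5 TPM.

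The genes whose course was most like that of Prl2c3 were named by Pearson's r of log2(TPM + 1) over the 10 libraries, as a description over libraries that share their timepoints. Of 13109 other genes, 124 had an r above 0.95 and 380 above 0.9. The 10 highest were Klk12, Aldh1a3, Steap1, Pou2af1, Kcnn4, Cda, Prl2c2, Nek6, Pcolce2 and Fxyd5, with r between 0.998 and 0.987. Prl2c2 stood 7th at 0.990 and Prl2c5 25th at 0.981. Without the grafted W12 libraries, a choice made after the data were seen, r of the 10 lay between 0.967 and 0.997, and it was 0.984 for Prl2c2 and 0.994 for Prl2c5.

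The likeness of these genes to Prl2c3 restates how they were chosen, and their levels were lower. Klk12, a kallikrein protease, was at 1.58 and 1.66 TPM at W6 and 3.91 and 4.58 TPM at W12, and at or below 0.105 TPM before. Aldh1a3, an enzyme of retinoic acid synthesis, went from 0.664 and 0.728 TPM at W2 to 10.6 and 12.8 TPM at W6 and 25.1 and 43.3 TPM at W12. Kcnn4, a calcium-activated potassium channel, reached 6.97 and 6.68 TPM at W6 and 15.8 and 19.8 TPM at W12. Fxyd5, a modulator of the sodium pump, was the most abundant of the 10 apart from Prl2c2, at 89.3 and 118 TPM at W12. Unlike Prl2c3, it was already above both D0 libraries (1.23 and 1.58 TPM) in all 4 libraries of W1 and W2, at 2.22 to 3.34 TPM. In none of the W6 and W12 libraries did any of the 9 genes outside the family reach the level of Prl2c3.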

How the data were processed

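RNA was measured in 10 libraries of FACS-sorted EpdSCs (D0, W1, W2, W6 and W12, 2 each), grouped by their labels. The authors deposited TPM per gene, made with Salmon 1.4.0 on a GENCODE index of GRCm38 that held the transgene and summed to genes with Tximport 1.12.3. Such a tool divides reads of near-identical genes by an estimate, so single Prl2c values carry that uncertainty. The deposited placode table holds only the authors' comparison of SOX9+ with SOX9neg cells (mean counts, fold changes and P values) and was not used.

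Genes whose mean TPM reached 1 were tested on log2(TPM + 1), a scale that understates changes of low genes. The 5 timepoints were fitted together with limma 3.58.1 in R 4.3.3, using eBayes with a mean-variance trend. Calls were made at an adjusted P under 0.05, with the Benjamini-Hochberg adjustment spanning every gene in the fit. The script was tested on simulated data. The study's DESeq2 test needs counts and was not run. TPM carry no depth, so the precision of a single value is unknown.

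The Prl2c genes and the 13 gene lists were chosen with earlier results of these data known. The text names every Prl2c gene, of each list at most 4 called genes by absolute log2 change and the members that define it, neighbours within 500 kb of at least 1 TPM mean, and the 10 genes of highest r with Prl2c3. Vegfa, Ang, Fos, Prl8a9, Prl8a1, Dcn, Gcm1 and Eomes were named after their values were seen. Positions and transcripts came from GENCODE M21 on GRCm38, an earlier release than the authors' own, and promoter windows from RefSeq, which matched 2 of the 4 Prl2c genes. Transcripts were compared with Biopython 1.88. Alternatives were another pseudocount (0.1), filter, scaling, variance model, library set and replicate block, each library left out, and the Prl2c genes summed.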

Additional observations from a re-analysis of the deposited data

How the results depend on the processing

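The Prl2c genes were tested because of their W6 and W12 levels, so only the size of their W6 difference is followed here. The log2 change against D0 ranged from 5.57 to 8.95 for Prl2c3, from 3.78 to 7.76 for Prl2c5 and from 3.09 to 6.70 for Prl2c2, the low ends with a library left out and the high ends with a pseudocount of 0.1. The changes at W1 and W2 rest on levels near 0 and moved with the pseudocount. With 0.1 in place of 1 the W2 change was 0.88 (s.e. 0.738) for Prl2c3, 0.64 for Prl2c2 and 0.73 for Prl2c5, against 0.24, 0.14 and 0.10, and that of Prl2c2 at W1 was 1.17 against 0.21. They could also turn sign. For Prl2c3 at W1 the summed row gave 0.16. With single libraries left out, the W2 change ran from −0.05 to 0.53 for Prl2c3 and from −0.04 to 0.31 for Prl2c2, the lowest values being without W2 replicate 2 and W2 replicate 1.

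The number of genes called fell with only the 4 libraries of a contrast to 411 (from 1296) at W1, 1086 (from 2058) at W2, 1094 (from 4251) at W6, each against D0, and 966 (from 2137) for W6 against W2. With every gene above 0 TPM it was 606 for W1, 1011 for W2 and 940 for W6 against W2, where more genes were tested. Leaving out single libraries gave 377 to 1773 calls for W1 against D0, 652 to 2568 for W2, 2356 to 5047 for W6 and 3362 to 6168 for W12, and 207 to 2626 for W6 against W2. The count moved by more than 1.5 times without either library of W1, W2 or W12 in the contrast of that timepoint with D0, without D0 replicate 2 at W6 and W12, and without W2 replicate 1, W2 replicate 2 or W6 replicate 2 at W6 against W2. These fits assume that the lone library varies like the others, and the cause was not tested.

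Replicate numbers did not pair the libraries: deviations of same-numbered libraries correlated between −0.129 and 0.0934. The replicate block gave 1396 calls at W6 against W2. With crossed numbers, chosen after the data were seen, 1225 genes were called at W1 and 4291 at W6 against D0. Of 1239 values of other named genes under these alternatives, 126 lost their call and 0 reversed. Depth is unknown for TPM, so no limit of detection is given.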

Other observations

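A few genes near the Prl2c genes or of their kind came up only in the grafted W12 libraries. The pseudogene Gm2399, on the far side of Prl2c3, was listed at 0 in all 8 libraries up to W6 and was at 0.416 and 0.925 TPM at W12. Nid1, a basement membrane protein encoded beyond Prl2c5, was at 0.188 TPM or less up to W6 and at 1.2 and 3.12 TPM at W12. Igf1 was at 0.325 TPM or less up to W6 and at 1.59 and 1.5 TPM at W12. Angpt2, an angiopoietin made mainly by endothelial cells, was at 0.0966 TPM or less up to W6 and at 0.659 and 2.43 TPM at W12, and the lymphatic growth factor Vegfc at 0.0281 TPM or less and then 0.448 and 0.708 TPM. None of these reached a mean of 1 TPM and none was tested.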
